A study of Mus musculus with 58 samples.

Results

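Jade1 and 8 genes tied to MYST acetyltransferase complexes were followed in mouse embryonic stem (mES) cells before and after loss of DPY30 or RBBP5. The 9 genes, of 20177 with counts, were Jade1, Jade2, Kat7, Brpf1, Brpf3, Ing2, Ing4, Ing5 and Meaf6, found by gene symbol. Jade1 was selected on the fall of its T>C read counts, a measure of newly made RNA, in both degron lines of these data. Its values in those lines are therefore given as a description without a test, and the counts there are over the 8 partners. The partners were chosen by what their products do. Kat7, Ing4, Ing5 and Meaf6 encode subunits that can sit in a complex with JADE1, Jade2 encodes a scaffold of the same family, Brpf1 and Brpf3 encode scaffolds used in place of JADE, and Ing2 encodes a related ING protein.

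MYST acetyltransferases transfer acetyl groups to histones and act in complexes built on a scaffold protein. JADE proteins scaffold complexes of the catalytic subunit KAT7 (also called HBO1) that acetylate histone H4, whereas BRPF proteins direct MYST enzymes, KAT7 included, towards histone H3. These complexes also hold the small subunit MEAF6 and the ING proteins ING4 or ING5, whose PHD finger binds H3K4me3. ING2 carries the same kind of finger but is known mainly from a deacetylase complex. H3K4me3 sits at the starts of active genes, most of all those with CpG-rich promoters, and the SET1/COMPASS complexes that write it share the subunits DPY30 and RBBP5.

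Newly made RNA was measured by SLAM-seq in 36 libraries. Cells took up 4-thiouridine (4SU) for 60 min at 100 µM before harvest, and the label appears as a T>C conversion in a sequencing read. DPY30-mAID cells carry a degron tag on DPY30 that auxin triggers through OsTIR1, and were sampled at 0, 2, 8 and 24 h of auxin with 3 libraries each. RBBP5-FKBP cells carry a degron tag on RBBP5 that dTAG-13 triggers, and were sampled at the same times with 3 libraries each. Kdm5dKO cells are DPY30-mAID cells that also lack the H3K4me3 demethylases Kdm5a and Kdm5b, and were sampled at 0, 2, 4, 8, 24 and 48 h of auxin with 2 libraries each. A further 22 Quant-seq libraries, without 4SU, came from DPY30-mAID cells given 1 µM retinoic acid (RA) without LIF, with DMSO at 0 h, 8 h and days 1, 2, 4 and 6 or with auxin from 8 h on, 2 libraries each. The study calls its SLAM-seq libraries biological replicates and used a pair of Kdm5dKO clones, but it does not say which clone or culture each library came from. The tests measure the spread between libraries.

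Levels are given as counts of a gene's reads scaled to 1000000 counted reads of the library (CPM), for all reads of a gene or for its T>C reads, and the T>C share is the percentage of its reads with a conversion. Libraries held 1721185 to 2852331 reads in the 2 degron lines, 5931269 to 7792404 in Kdm5dKO cells and 1264241 to 2543632 in Quant-seq. T>C reads made up 4.85% to 16.1% of a library in the degron lines, 2.04% to 5.27% in Kdm5dKO cells and 0.303% to 0.388% in the unlabelled Quant-seq libraries, which set the background. The 8 h libraries of DPY30-mAID cells differed, at 13.0%, 9.82% and 5.51%. Kdm5a stood at 26.0 to 40.7 CPM in Kdm5dKO cells against 61.1 to 107 in DPY30-mAID cells, and Kdm5b at 109 to 151 against 389 to 946, although reads at a 3′ end need not lie in the deleted part. DPY30 and RBBP5 are removed as proteins, so their RNA does not check the labels. All 8 pluripotency markers exceeded 10 CPM in all 3 SLAM-seq lines. Fibroblast markers summed to 0.351 to 25.0 CPM there, primitive endoderm markers to 0.0 to 19.5 CPM, trophectoderm markers to 2.41 to 31.9 CPM and neural markers to 10.7 to 58.1 CPM. The 2 DMSO day 6 libraries were identical in every interval and counted as 1 sample.

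Reads were counted over annotated 3′ UTR intervals on GRCm38. Jade1 (ENSMUSG00000025764) lies at chr3:41555731-41616864 on the plus strand. Its 2 intervals are chr3:41605019-41606695 and chr3:41614004-41616864, and the second held 96.5% to 99.7% of its reads in every library. Kat7 (ENSMUSG00000038909, chr11:95274259-95310246, minus strand) has 1 interval, and Ing5 (ENSMUSG00000026283, chr1:93803965-93822101, plus strand) has 6.

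The promoters of Jade1, Kat7 and Ing5 are shown because these genes carry the results below. Each run holds the 250 bases before a RefSeq start on GRCm38.p6, read along the gene's strand, with CpG dinucleotides in capitals. RefSeq lists 4 starts for Jade1 and the first is shown.
Jade1, chr3:41555484-41555733, plus strand: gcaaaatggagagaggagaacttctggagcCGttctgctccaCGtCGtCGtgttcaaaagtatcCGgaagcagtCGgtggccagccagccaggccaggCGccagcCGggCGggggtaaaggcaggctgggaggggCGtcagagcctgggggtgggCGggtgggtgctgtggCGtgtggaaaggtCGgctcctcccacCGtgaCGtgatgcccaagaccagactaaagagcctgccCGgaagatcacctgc
Kat7, chr11:95310247-95310496, minus strand: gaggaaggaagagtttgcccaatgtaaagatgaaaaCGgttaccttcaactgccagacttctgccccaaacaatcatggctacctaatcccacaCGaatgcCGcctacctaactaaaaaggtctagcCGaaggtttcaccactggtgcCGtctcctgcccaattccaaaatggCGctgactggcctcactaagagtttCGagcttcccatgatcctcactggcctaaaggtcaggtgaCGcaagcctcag
Ing5, chr1:93803715-93803964, plus strand: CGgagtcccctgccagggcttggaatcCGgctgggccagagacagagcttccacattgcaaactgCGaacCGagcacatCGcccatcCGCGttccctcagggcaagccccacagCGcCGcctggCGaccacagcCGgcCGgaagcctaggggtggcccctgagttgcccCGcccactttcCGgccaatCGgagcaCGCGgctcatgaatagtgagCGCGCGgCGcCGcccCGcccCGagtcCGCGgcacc
The Jade1 run held 16 CpG, the Kat7 run 8 and the Ing5 run 26, against a median of 6 over 32851 windows of the same length. As many or more were found in 25.4%, 43.0% and 9.59% of all windows, respectively. The other 3 Jade1 starts had 6, 35 and 18 CpG. Brpf1 had 19, Brpf3 34, Ing2 24, Ing4 16 and Meaf6 25, and Jade2 had no entry.

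Jade1, the scaffold that couples KAT7 to histone H4, had fewer T>C reads after loss of either COMPASS subunit. These are bulk samples, in which fewer cells of a type and less RNA per cell cannot be told apart. In DPY30-mAID cells, its T>C reads were 521, 595 and 669 CPM at 0 h and 447, 486 and 443 CPM after 2 h of auxin. At 8 h they were 285, 212 and 130 CPM, and at 24 h 407, 374 and 350 CPM. All libraries at 2, 8 and 24 h lay below all 0 h libraries, and those at 24 h lay above those at 8 h. The log2 fold changes were −0.42 ± 0.26 (SE) at 2 h, −1.61 ± 0.27 at 8 h and −0.67 ± 0.26 at 24 h, when the median of all 6317 genes tested was −0.08, −0.71 and −0.14. With library scaling taken from the T>C reads themselves, which sets the median gene near 0, they were −0.35, −0.96 and −0.56.

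In RBBP5-FKBP cells, Jade1 T>C reads went down at each time. They were 434, 517 and 544 CPM at 0 h, 294, 288 and 331 CPM after 2 h of dTAG-13, 177, 159 and 187 CPM at 8 h and 147, 143 and 138 CPM at 24 h. No library of one time overlapped with those of another. The log2 fold changes were −0.73 ± 0.15, −1.56 ± 0.16 and −1.84 ± 0.16, against medians of −0.33, −0.50 and −0.91 over 4761 genes. They were −0.51, −1.24 and −1.13 when scaled on T>C reads, against medians of −0.10, −0.16 and −0.20.

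All Jade1 reads, which hold old and new RNA together, also went down in both lines. In DPY30-mAID cells they were 1544, 1610 and 1862 CPM at 0 h, 1380, 1341 and 1340 CPM at 2 h, 873, 854 and 838 CPM at 8 h and 933, 920 and 840 CPM at 24 h. In RBBP5-FKBP cells they were 1564, 1732 and 1822 CPM at 0 h, 1424, 1461 and 1467 CPM at 2 h, 921, 826 and 910 CPM at 8 h and 993, 963 and 1012 CPM at 24 h. The log2 fold changes at 8 and 24 h were −1.07 ± 0.09 and −0.91 ± 0.09 in DPY30-mAID cells and −0.99 ± 0.10 and −0.82 ± 0.10 in RBBP5-FKBP cells. The 8 and 24 h libraries overlapped in DPY30-mAID cells but not in RBBP5-FKBP cells, in which the 24 h libraries were the higher.

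**Figure D1:**
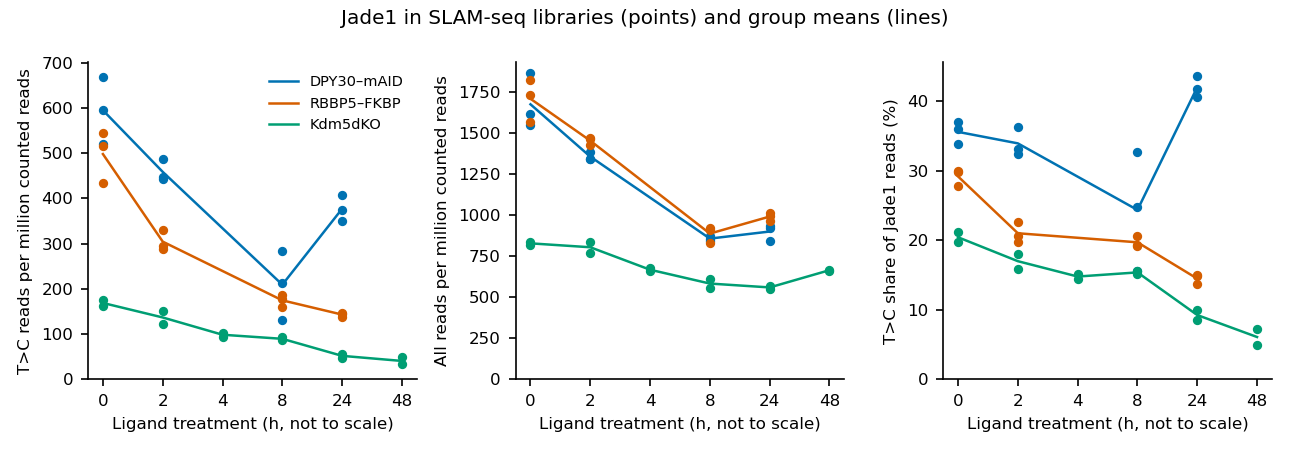
Jade1 in SLAM-seq libraries of DPY30-mAID, RBBP5-FKBP and Kdm5dKO cells by hours of auxin or dTAG-13 (axis not to scale), as T>C reads (CPM), all reads (CPM) and T>C share (%), with points for libraries and lines through group means. T>C reads of DPY30-mAID cells dipped at 8 h and stood higher at 24 h, whereas those of RBBP5-FKBP and Kdm5dKO cells stood lowest at the last time.

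In Kdm5dKO cells Jade1 was tested, in libraries other than those of the fall that selected it. Earlier results of the whole series were known by then, so these p-values are not independent evidence. Its T>C reads were 161 and 176 CPM at 0 h, 122 and 151 CPM at 2 h, 102 and 94.1 CPM at 4 h, 92.3 and 86.0 CPM at 8 h, 55.9 and 46.9 CPM at 24 h and 32.3 and 48.0 CPM at 48 h. Both libraries of each treated time lay below both 0 h libraries, while the 24 and 48 h libraries overlapped. The log2 fold change was −0.31 ± 0.14 at 2 h (adjusted p = 0.587) and did not pass the test. Jade1 fell from 4 h on, by −0.80 ± 0.15 (adjusted p = 9.12e-04), −0.95 ± 0.15 at 8 h (adjusted p = 4.00e-06), −1.77 ± 0.15 at 24 h (adjusted p = 1.55e-16) and −2.15 ± 0.15 at 48 h (adjusted p = 3.89e-21).

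Of the 6 members tested in Kdm5dKO cells, Jade1 was the only one called at 4 and at 8 h. It also had the most reads over all SLAM-seq libraries, 124560 against 20585 for Ing5, the next member. Scaled on T>C reads, its standard error at 8 h was 0.10, against 0.21 for Ing5 to 0.70 for Brpf3. Brpf3 then stood below Jade1 without a call, while Kat7, Brpf1, Ing2 and Ing5 had positive values. The part of depth in Jade1 being the only call was not tested. At 4 and 8 h 0.587% and 1.54% of the 5965 genes tested were called lower and 0.0% and 0.0168% higher, and the median gene stood at −0.26 and −0.19. The median was −0.80 at 24 h and −1.29 at 48 h, and scaled on T>C reads the Jade1 changes from 4 h on were −0.57, −0.78, −1.04 and −0.97. Each kept its call under that scaling. The call at 4 h was lost without replicate 2 of that time (adjusted p = 0.111).

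All Jade1 reads in Kdm5dKO cells were 819 and 834 CPM at 0 h, 767 and 837 CPM at 2 h, 676 and 655 CPM at 4 h, 610 and 553 CPM at 8 h, 565 and 550 CPM at 24 h and 660 and 666 CPM at 48 h. They fell at 8 h (−0.53 ± 0.07, adjusted p = 0.00105), at 24 h (−0.63 ± 0.07, adjusted p = 1.80e-05) and at 48 h (−0.41 ± 0.07, adjusted p = 6.38e-04). The share of all 11394 genes called lower was 0.456%, 6.44% and 7.84% at these times, and the share called higher 0.316%, 5.05% and 6.72%. None of the 8 partners was called in either direction at any of the 3 times, by edgeR or by DESeq2, and none had an unadjusted p below 0.05.

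The T>C share sets new against all Jade1 reads within 1 library, and it is given beside the T>C percentage over all genes of the same libraries. In DPY30-mAID cells it was 33.8%, 36.9% and 36.0% at 0 h, 32.4%, 36.3% and 33.1% at 2 h, 32.6%, 24.8% and 15.6% at 8 h and 43.6%, 40.6% and 41.7% at 24 h. Over all genes the libraries had 15.3% to 16.1% at 0 h, 14.4% to 14.9% at 2 h and 14.5% to 15.8% at 24 h. At 8 h they had 13.0%, 9.82% and 5.51%, and the Jade1 shares followed that order. In RBBP5-FKBP cells the share was 29.1% ± 1.23 (SD, n = 3) before dTAG-13, 21.0% ± 1.43 after 2 h, 19.7% ± 0.757 after 8 h and 14.4% ± 0.713 after 24 h, lower at each time than in any 0 h library. The percentage over all genes went down in the same libraries, from 9.10% to 10.1% at 0 h to 7.36% to 7.91% at 2 h, 6.47% to 7.25% at 8 h and 4.85% to 5.33% at 24 h. In Kdm5dKO cells it went from 20.4% ± 1.05 (SD, n = 2) at 0 h to 9.21% ± 0.969 at 24 h and 6.05% ± 1.63 at 48 h without overlap, and with 2 libraries a group the exact permutation test cannot go below its two-sided p of 0.333. All genes together went there from 4.69% to 5.27% at 0 h to 2.98% to 3.13% at 24 h and 2.04% to 2.37% at 48 h. Labelling over all genes thus moved with the Jade1 share in RBBP5-FKBP and Kdm5dKO cells and at 8 h in DPY30-mAID cells. The part of labelling in these falls was not tested. The unlabelled Quant-seq libraries had 0 to 8 T>C reads of Jade1 each, at most 0.542% of its reads.

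The upstream interval of Jade1 was thinly read, with 5 to 87 reads per SLAM-seq library. In DPY30-mAID cells it had 19.5, 14.3 and 31.5 CPM before auxin and 4.69, 2.42 and 2.73 CPM after 8 h. The downstream interval was at 1525, 1596 and 1830 CPM and at 868, 852 and 835 CPM. Both intervals thus had lower levels at 8 h in that line without overlap. The upstream interval of RBBP5-FKBP cells was higher at 2 h (25.6, 27.9 and 20.7 CPM) than at 0 h (11.5, 7.36 and 13.1 CPM) without overlap. It overlapped with 0 h at 8 and 24 h there, and at 2 and 24 h in DPY30-mAID cells. The summed gene rests on the downstream interval.

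Among the SLAM-seq groups, ordered by mean level of all reads, Jade1 stood highest in untreated RBBP5-FKBP (1706 ± 131 CPM, SD, n = 3) and untreated DPY30-mAID cells (1672 ± 168), whose libraries overlapped. Their 2 h groups followed at 1451 ± 23.4 and 1354 ± 23.0 CPM and did not overlap. The next groups lay between 989 ± 24.6 CPM, in RBBP5-FKBP cells at 24 h, and 802 ± 49.4 CPM, in Kdm5dKO cells at 2 h. The lowest were Kdm5dKO cells treated for 4, 48, 8 and 24 h (666 ± 15.1, 663 ± 4.33, 581 ± 40.5 and 558 ± 10.6 CPM), of which those at 4 and 48 h overlapped, as did those at 8 and 24 h.

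Among the partners, Kat7 and Ing5 were called most often in T>C reads. They also had the most reads over all SLAM-seq libraries, 14068 and 20585 against 6896 for Ing2, the next partner. The part of depth in their calls was not tested. In the T>C reads of DPY30-mAID cells, 7 of the 8 partners passed the filter on low counts and Ing4 did not. After 8 h of auxin 2 of the 7 were called lower and 0 higher, where 16.1% and 0.158% of all genes tested were. At 2 h none of the 7 was called by edgeR or DESeq2 (1 had an unadjusted p below 0.05), as 0.0% of genes were in either direction. At 24 h none was called by either tool (3 had an unadjusted p below 0.05), where 2.79% of genes were lower and 0.823% higher.

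Kat7, the catalytic subunit, had 46.9, 43.5 and 57.2 CPM of T>C reads at 0 h in DPY30-mAID cells and 26.8, 19.8 and 22.8 CPM at 8 h. The groups did not overlap, and the log2 fold change was −1.18 ± 0.35 (adjusted p = 0.0155). Its values at 2 h (46.4, 38.7 and 25.8 CPM) overlapped with those at 0 h, and those at 24 h (30.9, 34.4 and 21.0 CPM) lay below them without a call (−0.79 ± 0.34, adjusted p = 0.188), and were called lower when only these groups were fitted. The call at 8 h was lost without replicate 3 of 0 h or replicate 2 of 8 h, when only these groups were fitted, and when scaled on T>C reads (−0.45, adjusted p = 0.420).

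Ing5, a reader subunit of H3K4me3, had 101, 82.7 and 80.4 CPM of T>C reads at 0 h in DPY30-mAID cells and 69.5, 38.7 and 28.3 CPM at 8 h. All 8 h libraries lay below the 0 h libraries (−1.05 ± 0.31, adjusted p = 0.0157). At 24 h it was back at 101, 112 and 126 CPM (0.35 ± 0.30, adjusted p = 0.563). The call at 8 h was lost without replicate 1 of 0 h or replicate 2 of 8 h, when only these groups were fitted, and when scaled on T>C reads (−0.41, adjusted p = 0.239).

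The other partners did not pass the test in the T>C reads of DPY30-mAID cells with libraries scaled on all reads. Brpf3, a BRPF scaffold, had the lowest values among them at 2 h (−1.54 ± 0.58) and 24 h (−1.56 ± 0.58, adjusted p = 0.115), with all libraries below those at 0 h. At 24 h it passed when scaled on T>C reads (−1.44, adjusted p = 0.0458) and when only these groups were fitted, and at 8 h it passed without replicate 1 of that time. Brpf1, the related scaffold, was at −0.58 ± 0.49 at 8 h, Meaf6 at −0.55 ± 0.86 and Ing2 at −0.10 ± 0.48, and all 3 turned positive when scaled on T>C reads. Jade2, the second JADE scaffold, was at 0.45 ± 0.73 at 8 h.

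**Figure D2:**
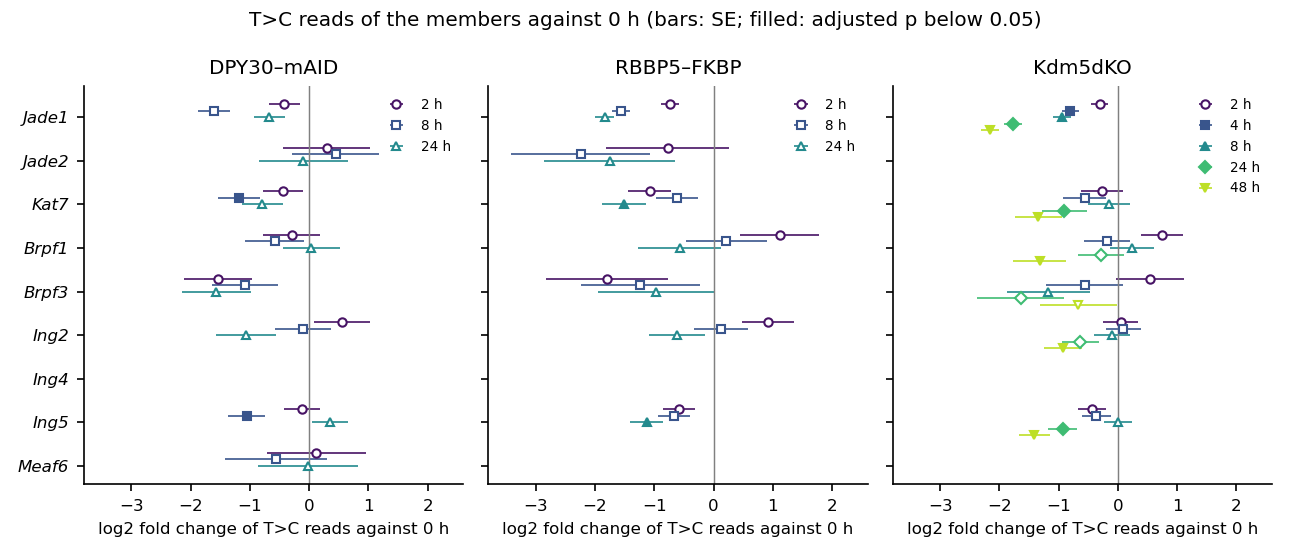
Log2 fold change of T>C reads against 0 h for the members that passed the filter on low counts, with 1 panel per line, marker shapes for times, bars for the standard error, filled markers for calls at adjusted p below 0.05 and a grey line at 0. Jade1 lies left of 0 throughout, open in the degron lines because it was not tested there, and Kat7 and Ing5 were called in DPY30-mAID cells at 8 h, in RBBP5-FKBP cells at 24 h and in Kdm5dKO cells at 24 and 48 h.

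In RBBP5-FKBP cells, 6 of the 8 partners passed the filter (Ing4 and Meaf6 did not). At 24 h 2 of the 6 were called lower and 0 higher, where 25.9% and 0.189% of genes were. Kat7 T>C reads were 28.6, 40.3 and 33.0 CPM at 0 h and 13.7, 11.2 and 11.6 CPM at 24 h (−1.51 ± 0.37, adjusted p = 0.00140). Ing5 T>C reads were 74.4, 60.0 and 67.2 CPM at 0 h and 29.2, 31.7 and 33.3 CPM at 24 h (−1.13 ± 0.27, adjusted p = 0.00127). Neither gene's groups overlapped, and both calls were lost when scaled on T>C reads (−0.81, adjusted p = 0.263, and −0.42, adjusted p = 0.499).

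At the earlier times no partner was called in RBBP5-FKBP cells. At 2 h, where 0.252% of genes were lower and 0.0% higher, Kat7 was at 18.6, 11.8 and 18.9 CPM, below all 0 h libraries (−1.08 ± 0.36, adjusted p = 0.185). It was the 1 partner that DESeq2 called at 2 h, and 3 partners had an unadjusted p below 0.05. At 8 h, where 7.71% were lower and 0.126% higher, Ing5 was at 46.1, 44.8 and 40.4 CPM, below all 0 h libraries (−0.66 ± 0.27, adjusted p = 0.123). DESeq2 called none of the partners at 8 h, and 1 had an unadjusted p below 0.05. Brpf1 stood above its 0 h libraries at 2 h without a call (1.12 ± 0.66), with 5.08, 4.21 and 4.36 CPM at 0 h and 11.6, 11.8 and 6.74 CPM at 2 h.

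In Kdm5dKO cells, Jade1, Kat7, Brpf1, Brpf3, Ing2 and Ing5 passed the filter. None was called at 2 h by edgeR or DESeq2, as 0.0% of genes were in either direction, and 2 had an unadjusted p below 0.05. At 24 h 3 of the 6 were lower and 0 higher (all genes 43.0% and 0.151%), and at 48 h 5 of the 6 were lower and 0 higher (all genes 72.2% and 0.134%). At 48 h Brpf3 was the 1 member not called (−0.67 ± 0.65).

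Kat7 T>C reads in Kdm5dKO cells were 4.27 and 4.75 CPM at 0 h, 2.73 and 2.27 CPM at 24 h (−0.91 ± 0.38, adjusted p = 0.0442) and 1.83 and 1.93 CPM at 48 h (−1.34 ± 0.40, adjusted p = 0.00247). Those of Ing5 were 10.9 and 12.8 CPM at 0 h, 6.90 and 6.05 CPM at 24 h (−0.94 ± 0.25, adjusted p = 0.00200) and 4.57 and 4.90 CPM at 48 h (−1.41 ± 0.26, adjusted p = 3.69e-06). Both genes overlapped with their 0 h libraries at 8 h, at 3.60 and 4.71 CPM and at 13.1 and 11.2 CPM. Brpf1 went from 2.21 and 4.11 to 1.22 and 1.49 CPM (−1.32 ± 0.45, adjusted p = 0.00742) and Ing2 from 5.44 and 6.42 to 3.05 and 3.57 CPM at 48 h (−0.93 ± 0.33, adjusted p = 0.00940).

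Every partner's call at 24 and 48 h in Kdm5dKO cells was lost when scaled on T>C reads, and Ing2 at 48 h then turned to 0.26. The call of Kat7 at 24 h was lost in 8 of 10 alternatives, among them each left-out library, and those of Brpf1 and Ing2 at 48 h without replicate 2 of 0 h or replicate 1 of 48 h.

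**Figure D3:**
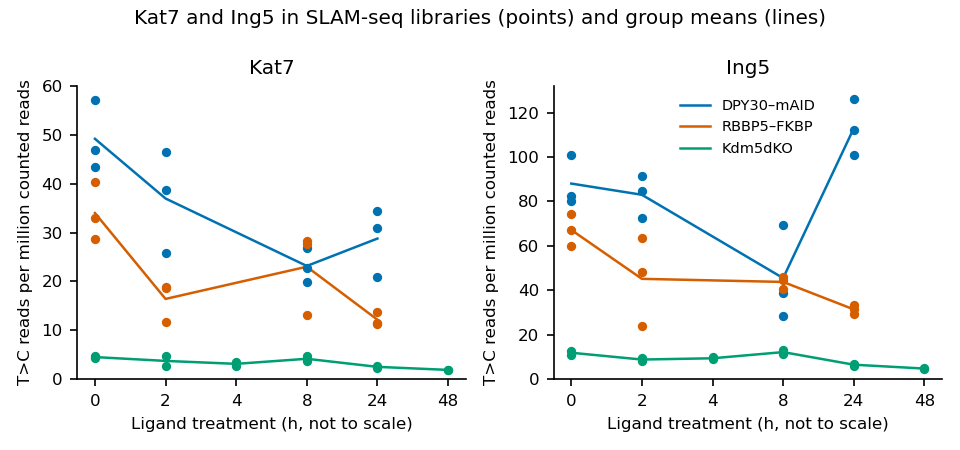
T>C reads (CPM) of Kat7 and Ing5 by hours of auxin or dTAG-13 (axis not to scale), with points for libraries and lines through the group means of DPY30-mAID, RBBP5-FKBP and Kdm5dKO cells. Ing5 in DPY30-mAID cells dipped at 8 h and was at 101 to 126 CPM at 24 h. The Kdm5dKO libraries lie below those of both degron lines for both genes. At 0 h they also had 4.69% to 5.27% T>C reads over all genes, against 9.10% to 16.1%, so levels are not compared between lines.

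The T>C shares of Kat7 and Ing5 were compared within lines, beside the T>C percentage over all genes. The Kat7 share was 32.9% ± 3.57 (SD, n = 3) at 0 h in DPY30-mAID cells and 16.7% ± 4.90 at 8 h, without overlap, and the exact permutation test gave its smallest two-sided p of 0.1. It overlapped with 0 h at 2 h (24.8% ± 6.64, exact permutation p = 0.2) and at 24 h (32.6% ± 1.502, exact permutation p = 0.8). In RBBP5-FKBP cells it went from 20.0% ± 4.36 to 9.78% ± 1.97 at 2 h and 8.70% ± 1.09 at 24 h, each without overlap (exact permutation p = 0.1), and was 15.0% ± 5.25 at 8 h, with overlap (exact permutation p = 0.5). The Ing5 share in RBBP5-FKBP cells was 23.4% ± 0.864 at 0 h, 18.6% ± 2.19 at 8 h and 14.3% ± 1.38 at 24 h (exact permutation p = 0.1 for both), and 17.2% ± 5.51 at 2 h, with overlap (exact permutation p = 0.2). In DPY30-mAID cells the Ing5 share was 31.7% ± 4.92 at 0 h and overlapped with it at 2 h (31.5% ± 2.56, exact permutation p = 0.9), 8 h (24.7% ± 10.8, exact permutation p = 0.4) and 24 h (36.2% ± 1.11, exact permutation p = 0.3). In Kdm5dKO cells the Kat7 share went from 6.12% ± 0.602 (SD, n = 2) at 0 h to 3.12% ± 0.338 at 24 h and 2.26% ± 0.449 at 48 h, and the Ing5 share from 15.4% ± 2.95 to 7.92% ± 0.546 and 5.73% ± 0.686, without overlap at these times. At 8 h both overlapped with 0 h there. The percentage over all genes was 15.3% to 16.1% at 0 h and 5.51% to 13.0% at 8 h in DPY30-mAID cells, and 9.10% to 10.1% at 0 h and 4.85% to 5.33% at 24 h in RBBP5-FKBP cells. Its part in these shares was not tested.

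All reads of the partners moved mainly after 24 h of auxin in DPY30-mAID cells, where all 8 were tested. There 4 were called lower and 1 higher (all genes 17.1% and 15.9%). At 8 h 1 was lower, Ing5, and 0 higher (all genes 7.61% and 5.38%), and 4 had an unadjusted p below 0.05. Ing5 was at 271, 277 and 287 CPM at 0 h, 193, 164 and 195 CPM at 8 h (−0.70 ± 0.12, adjusted p = 2.74e-05) and 286, 310 and 337 CPM at 24 h (0.15 ± 0.12, adjusted p = 0.340). Its 8 h libraries lay below, and its 24 h libraries overlapped with, those at 0 h.

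At 24 h Kat7 went from 163, 123 and 165 to 97.5, 100 and 66.2 CPM (−0.79 ± 0.16, adjusted p = 1.02e-04). Brpf3 went from 40.0, 34.2 and 33.7 to 14.04, 9.70 and 19.4 CPM (−1.32 ± 0.29, adjusted p = 3.24e-04). Ing4, the ING subunit that KAT7 complexes can hold in place of ING5, rose from 9.77, 4.99 and 9.78 to 20.9, 26.7 and 42.0 CPM (1.87 ± 0.39, adjusted p = 1.42e-04). The groups did not overlap for any of the 3 genes, and their calls held under all 11 alternatives.

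Brpf1 (−0.58 ± 0.23, adjusted p = 0.0469) and Meaf6 (−0.84 ± 0.31, adjusted p = 0.0342) were called lower at 24 h with less certainty. Brpf1 was at 39.1, 57.4 and 45.3 CPM at 0 h and 36.1, 32.0 and 28.3 CPM at 24 h, and Meaf6 at 30.8, 28.1 and 34.4 and at 22.5, 16.0 and 14.1 CPM. The call of Brpf1 was lost in 8 and that of Meaf6 in 4 of 11 alternatives, both without replicate 3 of 0 h and without replicate 2 or 3 of 24 h. Jade2 (−0.48 ± 0.28) and Ing2 (−0.51 ± 0.23) were not called.

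In RBBP5-FKBP cells, 0 of the 8 partners were called in either direction by edgeR at 8 h (all genes 5.12% lower, 4.13% higher) or at 24 h (4.49% and 2.99%). At 8 h 2 and at 24 h 3 had an unadjusted p below 0.05. DESeq2 called none at 8 h and 1 lower at 24 h. The highest value was that of Ing4 at 8 h (1.21 ± 0.42, adjusted p = 0.0743), with 11.5, 21.4 and 5.08 CPM at 0 h and 45.5, 26.0 and 20.2 CPM at 8 h, and these libraries overlapped. Ing5 was at 308, 267 and 284 CPM at 0 h and 225, 224 and 212 CPM at 24 h, lower without a call (−0.41 ± 0.14, adjusted p = 0.0762).

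Before any auxin, 5 of the 8 partners differed between Kdm5dKO and DPY30-mAID cells in all reads. There were 4 lower and 1 higher in Kdm5dKO cells, against 20.4% and 25.9% of 11483 genes. Ing5 was at 81.8 and 73.4 CPM against 271 to 287 CPM (−1.83 ± 0.11, adjusted p = 2.45e-15). Kat7 was at 74.9 and 72.5 CPM against 123 to 165 CPM (−1.01 ± 0.15, adjusted p = 1.38e-06). Neither overlapped. Jade1 was at 819 and 834 CPM against 1544 to 1862 CPM, given without a test because the untreated DPY30-mAID libraries took part in its selection.

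Jade2 was lower (15.4 and 10.9 against 23.4 to 35.3 CPM, −1.13 ± 0.27, adjusted p = 9.82e-04), as was Brpf3 (25.4 and 21.8 against 33.7 to 40.0 CPM, −0.59 ± 0.24, adjusted p = 0.0454), whose call was lost in 6 of 9 alternatives, among them each left-out library. Ing4 was higher in Kdm5dKO cells (28.4 and 26.1 against 4.99 to 9.78 CPM, 1.77 ± 0.30, adjusted p = 9.14e-06). Brpf1 (−0.11 ± 0.17), Ing2 (0.17 ± 0.19) and Meaf6 (−0.18 ± 0.24) were not called.

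**Figure D4:**
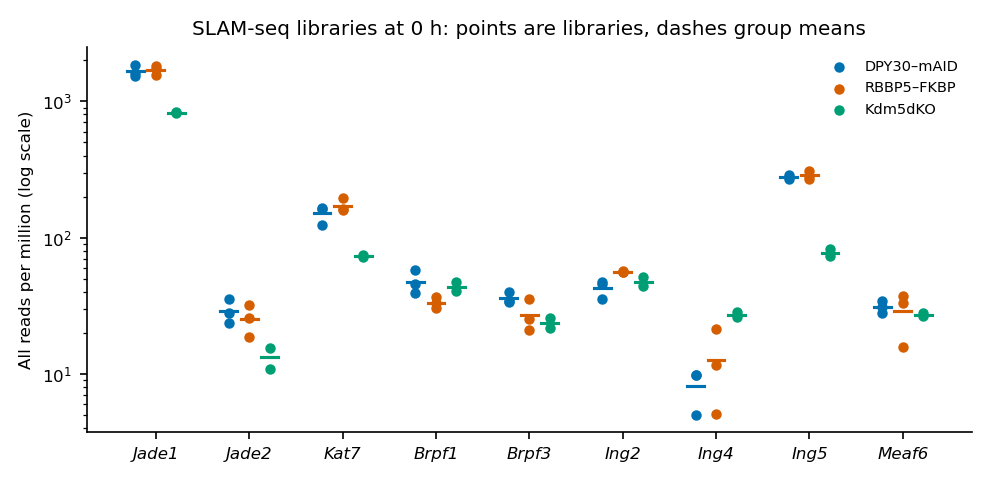
All reads (CPM, log scale) of the 9 members in the untreated SLAM-seq libraries of DPY30-mAID, RBBP5-FKBP and Kdm5dKO cells, with points for libraries and dashes for group means. Jade1, Jade2, Kat7 and Ing5 lie lower in Kdm5dKO than in both degron lines, and Ing4 lies higher.

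Line, clone, depth and read length cannot be told apart in this comparison. Reads covered 11.2 to 11.3 reference T positions on average in Kdm5dKO cells, 18.4 to 19.0 in DPY30-mAID and 11.2 to 11.9 in Quant-seq libraries. The Quant-seq libraries of DPY30-mAID cells at 0 h, which carry no Kdm5 deletion, had 95.4 and 85.3 CPM of Ing5, 568 and 580 CPM of Jade1, 30.5 and 34.2 CPM of Ing4 and 179 and 202 CPM of Kat7. Jade1, Ing4 and Ing5 were thus also far from the SLAM-seq values of the same line there, and the part of library type in the difference was not tested. Ing5 reads came from the last interval at 53.5% to 70.4% in DPY30-mAID and 72.7% to 85.5% in Kdm5dKO cells, and over that interval alone Ing5 was at 171, 159 and 164 CPM against 67.7 and 59.4 CPM.

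Whether the auxin response itself differed between Kdm5dKO and DPY30-mAID cells was tested on T>C reads at the shared times. Among 7 partners that passed the filter, 0 were called in either direction at 2, 8 or 24 h by edgeR, and 1, 2 and 1 had an unadjusted p below 0.05. DESeq2 called 1 lower at 24 h and none otherwise. The share of all 6901 genes with a lower response in Kdm5dKO cells was 0.0%, 0.0145% and 2.38%, and with a higher one 0.0%, 0.304% and 0.029%. Ing5 differed by 1.07 ± 0.41 at 8 h (adjusted p = 0.232) and −1.27 ± 0.42 at 24 h (adjusted p = 0.0809), and Kat7 by 1.05 ± 0.51 at 8 h (adjusted p = 0.375). Jade1 differed by 0.12 ± 0.34, 0.68 ± 0.34 and −1.09 ± 0.34, given without a test, and the median of all genes by −0.03, 0.53 and −0.68.

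Retinoic acid drives mES cells out of pluripotency, and Jade1 fell slightly in it without auxin. In Quant-seq its level in DMSO was 568 and 580 CPM at 0 h, 450 and 440 CPM at 8 h, 436 and 424 CPM at day 1, 503 and 469 CPM at day 2, 539 and 514 CPM at day 4 and 466 CPM in the 1 sample of day 6. All libraries lay below those at 0 h. The log2 fold changes were −0.31 ± 0.09 at 8 h (adjusted p = 0.0183), −0.41 ± 0.09 at day 1 (adjusted p = 5.94e-04), −0.32 ± 0.09 at day 2 (adjusted p = 0.00565) and −0.30 ± 0.09 at day 4 (adjusted p = 0.00621). The call at 8 h was lost without any of its 4 libraries, that of day 2 without its replicate 2 and that of day 4 without its replicate 2 or without normalization factors (−0.12). In DMSO the summed pluripotency markers were at 7016 to 7291 CPM at 0 h, 6646 to 6831 CPM at 8 h, 7355 to 7468 CPM at day 1, 4239 to 4265 CPM at day 2 and 3300 to 3317 CPM at day 4. Primitive endoderm markers went from 3.58 to 5.90 CPM at 0 h to 419 to 426 CPM at day 4, and the part of cell identity in the Jade1 values was not tested.

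Jade2 dropped to near 0 in RA. Its DMSO libraries had 27.8 and 24.4 CPM at 0 h, 14.1 and 13.4 at 8 h, 2.71 and 3.86 at day 1, 0 and 0.466 at day 2, 0.901 and 0.933 at day 4 and 0.441 at day 6. These were 124 reads over both libraries at 0 h, 59 at 8 h, 12 at day 1, 1 at day 2 and 4 at day 4. The ratio to 0 h was 0.529 at 8 h (95% counting interval 0.381 to 0.727), 0.126 at day 1 (0.0636 to 0.229), 0.00943 at day 2 (2.37e-04 to 0.0535) and 0.0353 at day 4 (0.00947 to 0.0927). The fall was called at 8 h (adjusted p = 0.0373, lost in 5 of 9 alternatives, each left-out library among them), at day 1 (adjusted p = 4.76e-07), at day 2 (adjusted p = 1.19e-09) and at day 4 (adjusted p = 1.42e-09). Counting intervals cover counting error only.

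Kat7 was at 179 and 202 CPM at 0 h, 173 and 197 CPM at 8 h, 100 and 94.2 CPM at day 1, 124 and 127 CPM at day 2, 134 and 132 CPM at day 4 and 140 CPM at day 6. It fell at day 1 (−0.96 ± 0.13, adjusted p = 1.04e-06), day 2 (−0.67 ± 0.13, adjusted p = 8.97e-05) and day 4 (−0.69 ± 0.13, adjusted p = 4.26e-05), lying below 0 h without overlap. Brpf1 fell at day 1, from 53.8 and 62.5 to 24.4 and 32.5 CPM (−1.03 ± 0.19, adjusted p = 7.80e-05), and at day 2 (−0.58 ± 0.18, adjusted p = 0.00896), and was at 66.2 and 64.8 CPM at day 4 (−0.01 ± 0.17). Its call at day 2 was lost without replicate 2 of 0 h or of day 2.

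Ing5 was at 95.4 and 85.3 CPM at 0 h, rose to 122 and 107 CPM at 8 h (0.40 ± 0.13, adjusted p = 0.0327) and fell to 76.1 and 63.9 CPM at day 4 (−0.54 ± 0.14, adjusted p = 0.00153). The rise was lost in 7 of 9 alternatives, each left-out library among them, and the fall in none. In all, 2 of the 9 members were lower and 1 higher at 8 h, where 9.4% and 8.94% of 11415 genes were. At day 1 4 were lower and 0 higher (all genes 23.9% and 27.9%), as at day 2 (22.6% and 25.4%) and at day 4 (26.5% and 27.8%). Brpf3, Ing2, Ing4 and Meaf6 were not called at any of these times.

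With auxin in place of DMSO, Jade1 was lower at each RA time tested. It was at 277 and 298 CPM with auxin at 8 h, 232 and 233 CPM at day 1, 223 and 230 CPM at day 2, 282 and 294 CPM at day 4 and 353 and 278 CPM at day 6. Both auxin libraries lay below every DMSO library of the same time. The log2 fold changes against DMSO were −0.72 ± 0.09 at 8 h (adjusted p = 8.87e-05), −0.87 ± 0.10 at day 1 (adjusted p = 1.84e-06), −1.21 ± 0.10 at day 2 (adjusted p = 2.12e-09) and −1.08 ± 0.10 at day 4 (adjusted p = 3.99e-09). All 4 calls held in each of their 9 alternatives. These p-values are not independent evidence, since Jade1 was selected on its fall in the same line under auxin, with earlier results known. Day 6 was not tested, since DMSO held 1 sample. The summed pluripotency markers were also lower with auxin at the 4 times tested, at 5672 to 5705 CPM at 8 h, 4878 to 4925 CPM at day 1, 3067 to 3111 CPM at day 2 and 2108 to 2141 CPM at day 4, against the DMSO sums given above. At day 6 they were higher, at 1779 to 1809 CPM against 1616 CPM. Their part in the Jade1 difference was not tested.

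Jade1 was the only member called lower by auxin at any of the 4 times, where 0.736%, 3.49%, 8.09% and 11.5% of all genes were lower. Exactly 1 member was called higher at each time, a different one every time, where 0.0526%, 3.52%, 5.32% and 7.04% of genes were higher. At 8 h this was Ing2, at 68.2 and 57.4 CPM against 27.7 and 29.4 CPM in DMSO (1.04 ± 0.21, adjusted p = 0.0133), a call lost without any of the 4 libraries. At day 1 it was Kat7, at 162 and 154 CPM against 100 and 94.2 CPM (0.72 ± 0.14, adjusted p = 0.00144), which held in all 9 alternatives.

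At day 2 it was Jade2, with 12 reads against 1 (ratio 13.9, 95% counting interval 2.06 to 595, adjusted p = 0.0176), a call lost in 4 of 9 alternatives, among them without replicate 1 of either group. Neither of these groups reached the filter on low counts, which Jade2 passed through its 0 h and 8 h groups. At day 4 it was Brpf3, at 39.7 and 40.3 CPM against 13.5 and 22.8 CPM (0.93 ± 0.23, adjusted p = 0.00483), a call lost with DESeq2 and without replicate 1 of DMSO. The groups of these 4 genes did not overlap. At day 4 the primitive endoderm markers summed to 269 to 270 CPM with auxin and 419 to 426 CPM in DMSO, with all 4 above 10 CPM in both, and their part in these differences was not tested.

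**Figure D5:**
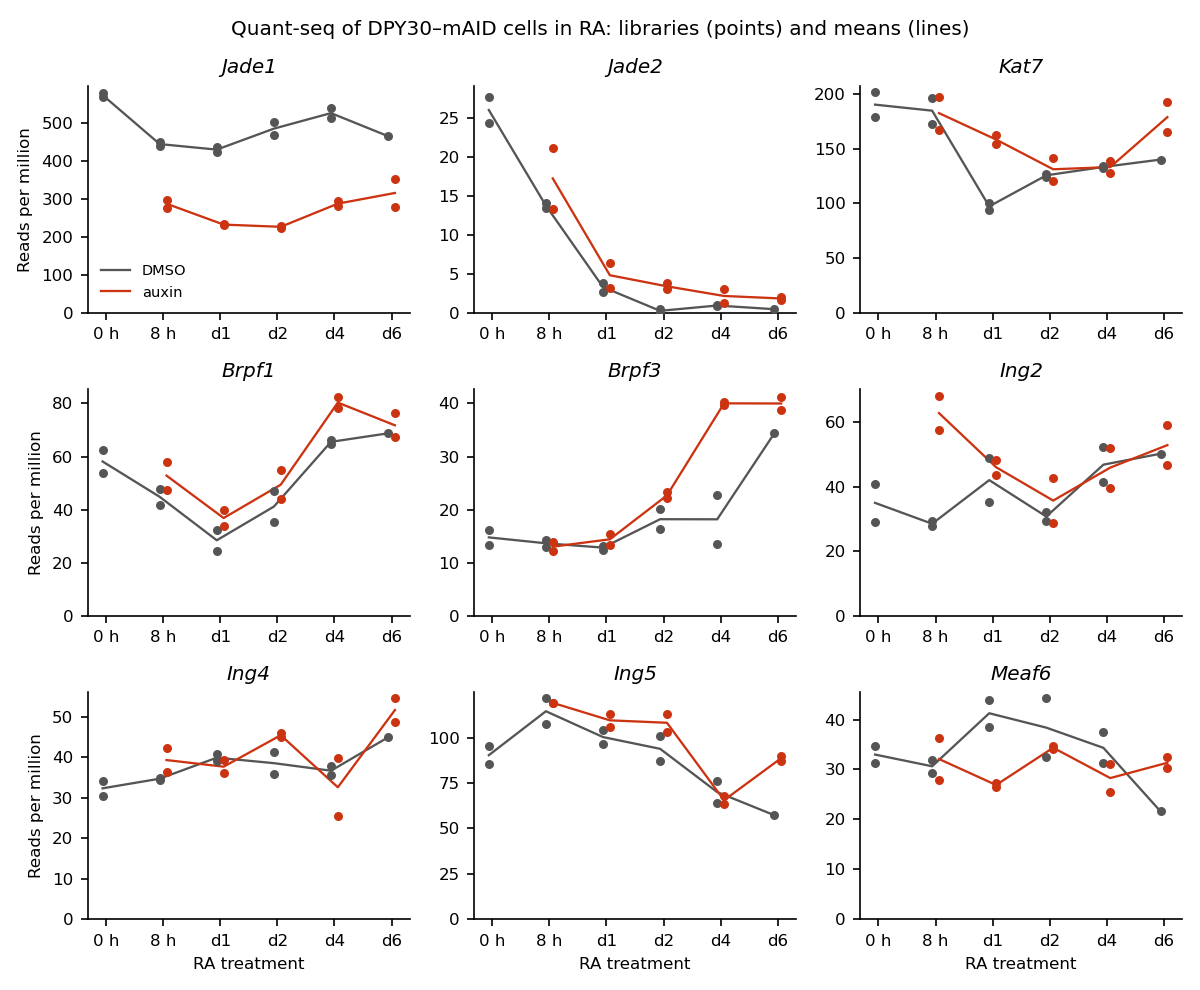
Reads (CPM) of the 9 members in Quant-seq libraries of DPY30-mAID cells by time in RA, with DMSO in grey, auxin in red, points for libraries and lines through group means. Jade1 lies lower with auxin at all 5 shared times, Jade2 runs to near 0 in both arms, and Kat7 dips at day 1 in DMSO to 94.2 to 100 CPM but stands at 154 to 162 CPM with auxin.

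Other genes of the MYST complexes, 33 in a list that left the 9 members out, had lower calls alone in T>C reads of the 3 time courses. There at most 0.823% of all genes were called higher at any time. In all reads the list had calls in both directions. In T>C reads of DPY30-mAID cells at 8 h 5 of 26 tested were lower, where 16.1% of all genes were (median −0.90, against −0.71 for all genes). At 24 h 2 of 26 were lower (all genes 2.79%, medians −0.21 and −0.14). In RBBP5-FKBP cells 3 of 23 were lower at 8 h (all genes 7.71%, medians −0.59 and −0.50) and 10 of 23 at 24 h (all genes 25.9%, medians −1.12 and −0.91). In Kdm5dKO cells 17 of 26 were lower at 24 h (all genes 43.0%, medians −0.94 and −0.80) and 23 at 48 h (all genes 72.2%, medians −1.45 and −1.29). In all reads, 31 were tested. At 24 h 9 were lower and 2 higher in DPY30-mAID cells (all genes 17.1% and 15.9%), 2 lower and 3 higher in RBBP5-FKBP cells (4.49% and 2.99%) and 3 lower and 0 higher in Kdm5dKO cells (6.44% and 5.05%). At 8 h 3 were lower and 1 higher in DPY30-mAID cells (all genes 7.61% and 5.38%), 1 lower and 2 higher in RBBP5-FKBP cells (5.12% and 4.13%) and 1 lower and 0 higher in Kdm5dKO cells (0.456% and 0.316%). Between untreated Kdm5dKO and DPY30-mAID cells 11 were lower and 8 higher (20.4% and 25.9%). Called at 8 h in both degron lines were Morf4l1 (−1.17 ± 0.29, adjusted p = 0.00469, and −0.70 ± 0.22, adjusted p = 0.0338) and Morf4l2 (−1.47 ± 0.35, adjusted p = 0.00324, and −1.45 ± 0.29, adjusted p = 5.51e-04). Morf4l1 encodes MRG15, the chromodomain subunit of NuA4, and Morf4l2 its close relative MRGX.

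In RA with DMSO, 20 of 31 tested genes of the MYST list were lower and 2 higher at day 1, where 23.9% and 27.9% of all genes were (median −0.57, against 0.10 for all genes). At day 2 15 were lower and 2 higher (all genes 22.6% and 25.4%, medians −0.48 and 0.06), at 8 h 7 and 0 (9.4% and 8.94%) and at day 4 9 and 3 (26.5% and 27.8%). With auxin against DMSO, 1 was lower at 8 h, 1 lower and 1 higher at day 1, 1 lower at day 2 and 7 lower at day 4 (median −0.25, against −0.03), where 0.736%, 3.49%, 8.09% and 11.5% of all genes were lower. Among 14 other genes whose products bind H3K4me3, 3 of 13 tested were lower in T>C reads of DPY30-mAID cells at 8 h (all genes 16.1%, median −0.71, as for all genes) and 1 of 11 in RBBP5-FKBP cells (all genes 7.71%), and the chromatin remodeller Chd1 was called in both (−1.40 ± 0.36, adjusted p = 0.00569, and −1.26 ± 0.36, adjusted p = 0.0208). In all reads of DPY30-mAID cells 2 of the 14 were lower and 3 higher at 8 h (all genes 7.61% and 5.38%). At 24 h 6 were lower and 0 higher there (17.1% and 15.9%), and 0 lower and 2 higher in RBBP5-FKBP cells (4.49% and 2.99%). In RA with DMSO 9 were lower and 0 higher at day 1 (23.9% and 27.9%, median −0.69). Of 8 acetyltransferase genes outside the MYST family, 5 were lower in all reads at 24 h in DPY30-mAID cells (Crebbp, Ep300, Kat2a, Naa40 and Ncoa3) and 1 higher (Hat1), with a median of −0.88 against 0.01 for all genes, of which 17.1% were lower and 15.9% higher. At 24 h in RBBP5-FKBP cells edgeR called 0 of the 8 in either direction (4 had an unadjusted p below 0.05, median −0.05), where 4.49% of all genes were lower and 2.99% higher. In Kdm5dKO cells 1 was lower, Hat1 (median 0.05), and 0 higher, where 6.44% and 5.05% of all genes were. In RA with DMSO 7 of the 8 were lower at day 1 (all genes 23.9%, median −1.04). The 3 lists were drawn up with earlier results of these data known, and their counts are a description.

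Across the 14 SLAM-seq group means, centred within each line, the genes whose T>C reads followed Jade1 most closely were Elovl6 (Pearson's r = 0.972), Tuba1b (0.972), Rpl30 (0.970), Dlc1 (0.970) and Ipo7 (0.966), out of 4323 compared. Kat7 (r = 0.830) ranked 932 and Ing5 (r = 0.825) ranked 978, ahead of Brpf1 (0.583), Brpf3 (0.504) and Ing2 (0.462). Across the 11 Quant-seq groups the closest of 11414 genes were Ppp4r1 (r = 0.892), Arhgap8 (0.887), Maz (0.879), Fkbp1a (0.877) and Tmcc2 (0.853), while the partners ran from −0.36 for Ing5 to 0.18 for Meaf6. The points share controls, labelling and library scaling, so the values describe likeness only.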

How the data were processed

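SLAM-seq and Quant-seq libraries, grouped by the labels, came as 1 table per library of counts per 3′ UTR interval, which the authors made with SlamDunk v0.3.4 on GRCm38 per the file headers. The methods name a filter of at least 2 T>C conversions per read, but the deposited mean per T>C read was at most 1.32, so T>C counts here include reads with 1 conversion. The processing notes list HISAT2 2.2.1, Trim Galore, cutadapt, bcl2fastq and featureCounts, and the methods give HISAT with featureCounts for Quant-seq, although its file headers also say SlamDunk.

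Intervals were summed per gene, and 46420 intervals gave 20177 genes, all named from GENCODE vM21. Genes that averaged 10 reads or more in some group were tested with edgeR 4.0.16 (R 4.3.3, quasi-likelihood, Benjamini-Hochberg adjusted p below 0.05 over all genes tested). Total reads with TMM factors set the scale, for T>C reads too. Tests compared each time with 0 h in each line, Kdm5dKO with DPY30-mAID cells at 0 h, the auxin effects of these lines with each other, RA times with 0 h, and auxin with DMSO. Exact permutation tests were two-sided. Alternatives were DESeq2 1.42.0, no filter, other scalings, a replicate block, fits of the compared groups alone, each library left out, and, for the calls, an added log2 fold change above 1. The fits were also run on simulated data, and the outcome is not given here. Named genes of the lists are those called in T>C reads at 8 h in both degron lines, and list genes named beyond them were chosen after their values were seen. Likeness to Jade1 is Pearson's r over group means of log2(CPM + 1), which for SLAM-seq were centred within each line. The members and lists were chosen with earlier results of these data known. Jade1 was left out of the test of untreated lines, which had been planned with all 9 members. Depth limits precision most for T>C reads of low genes, so Ing4 was tested in no T>C comparison, Meaf6 in DPY30-mAID cells and in the difference of the auxin effects but in no other, and Jade2 not in the Kdm5dKO time course. Columns of read CPM and conversion rate were not used.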

Additional observations from a re-analysis of the deposited data

Results flagged for a closer look

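For 4 partners, all treated libraries of one line lay above their 0 h libraries while all of another line lay below, in all reads. In each case the difference between the lines was not tested. How many of all genes did the same was not counted, so the 4 partners are a description only. At 8 h, the log2 fold change of Ing5 was 0.17 in Kdm5dKO cells against −0.33 in RBBP5-FKBP and −0.70 in DPY30-mAID cells, and that of Kat7 was 0.038 in Kdm5dKO against −0.22 in RBBP5-FKBP cells. At 24 h, Kat7 was at 0.057 in Kdm5dKO cells against −0.33 in RBBP5-FKBP and −0.79 in DPY30-mAID cells. Brpf1 was at −0.58 in DPY30-mAID and 0.20 in Kdm5dKO cells at 24 h, and Meaf6 at −0.84 and 0.10. None of the Kdm5dKO values among these passed the test within that line.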

How the results depend on the processing

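Of 60 counts of members called, 17 moved by over 1.5 times with an added threshold of size and 7 with DESeq2, and 5 in T>C reads with TMM factors from T>C reads. With TMM factors from T>C reads, members lower in DPY30-mAID cells became 0 at 8 h and 1 at 24 h (Brpf3), those in RBBP5-FKBP cells 0 at 24 h, and those in Kdm5dKO cells 1 at 24 h and 1 at 48 h (from 2, 0, 2, 3 and 5). Ing2 at 48 h in Kdm5dKO cells then turned to 0.26. This scaling brings the median gene nearer 0 by construction. It then ran from −0.20 in RBBP5-FKBP cells at 24 h to 0.15 for the difference of auxin effects at 8 h. Calls over all genes, lower and higher, went in DPY30-mAID cells from 1017 and 10 to 287 and 66 at 8 h and from 176 and 52 to 424 and 428 at 24 h. In RBBP5-FKBP cells they went from 12 and 0 to 0 and 0 at 2 h, from 367 and 6 to 51 and 7 at 8 h and from 1232 and 9 to 118 and 18 at 24 h. In Kdm5dKO cells they went from 35 and 0 to 13 and 1 at 4 h, from 92 and 1 to 45 and 6 at 8 h, from 2565 and 9 to 222 and 132 at 24 h and from 4307 and 8 to 301 and 150 at 48 h. For the difference of the auxin effects at 24 h they went from 164 and 2 to 70 and 42.

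Without TMM factors, calls in all reads at 8 h went from 749 and 530 to 509 and 776 in DPY30-mAID and from 495 and 400 to 390 and 471 in RBBP5-FKBP cells. In Kdm5dKO cells they went from 52 and 36 to 37 and 49 at 8 h, from 734 and 575 to 484 and 841 at 24 h and from 893 and 766 to 582 and 1220 at 48 h. In Quant-seq they went from 3030 and 3169 to 2322 and 3832 at day 4 in DMSO, and for auxin against DMSO from 84 and 6 to 41 and 29 at 8 h, from 923 and 607 to 646 and 901 at day 2 and from 1317 and 804 to 674 and 1637 at day 4.

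With an added log2 fold change above 1, members lower became 0 at 4 and 8 h and 1 at 24 h in T>C reads of Kdm5dKO cells, and, in all reads, 0 at 8 h with 1 at 24 h for DPY30-mAID cells and 0 at 8, 24 and 48 h for Kdm5dKO cells. In Quant-seq with DMSO they became 0 at 8 h, 2 at day 1, 1 at day 2 and 1 at day 4, and members higher 0 at 8 h. For auxin against DMSO members lower became 0 at 8 h and 0 at day 1, and members higher 0 at day 1 and 0 at day 4. The share of all genes is not set beside these counts. The same holds for the counts below with DESeq2, other fits and left-out libraries, and all of them describe the members only.

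DESeq2 called 1 member lower at 2 h in T>C reads and 1 at 24 h in all reads of RBBP5-FKBP cells, 1 for the difference of auxin effects at 24 h, and in Quant-seq with DMSO at 8 h 1 lower and 0 higher. For auxin against DMSO it called 0 higher at day 2 and 0 at day 4. Fits of the compared groups alone gave 0 members lower at 8 h and 2 at 24 h in T>C reads of DPY30-mAID cells and 0 higher for auxin at day 2. Without a filter, 1 member was higher at 8 h in all reads of RBBP5-FKBP cells and 0 in DMSO at 8 h, and without TMM factors 0 in DMSO at 8 h. The cause of these changes was not tested.

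Leaving out 1 library at a time, members lower ranged from 0 to 3 at 8 h in T>C reads of DPY30-mAID cells, from 0 to 1 at 4 h and from 3 to 5 at 48 h in those of Kdm5dKO cells, and from 2 to 4 at 24 h in all reads of DPY30-mAID cells. Members higher ranged from 0 to 1 at 8 h in all reads of RBBP5-FKBP cells and from 0 to 1 for the difference of auxin effects at 8 h, 1 being reached without replicate 1 of DPY30-mAID cells at 8 h. In Quant-seq with DMSO, each left-out library gave 0 lower and 0 higher at 8 h, and from 2 to 4 lower at day 2. For auxin against DMSO the number higher was 0 at 8 h and from 0 to 1 at day 2 and at day 4, and the number lower from 1 to 2 at day 4.

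A replicate block changed 1 call, that of Brpf1 in all reads at 24 h in DPY30-mAID cells (adjusted p = 0.0561), and no count by over 1.5 times. Replicate numbers did not pair the samples, since same-numbered libraries did not deviate together throughout. The mean correlation of their deviations in all reads was −0.00235 in DPY30-mAID, −0.003 in RBBP5-FKBP, 0.0464 in Kdm5dKO and 0.00515 in Quant-seq libraries, and single pairs ranged from −0.126 to 0.356 in Kdm5dKO and from −0.203 to 0.342 in Quant-seq libraries.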
